A study of Mus musculus with 8 samples.

Results

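The colony-stimulating factors and their receptors were examined in hearts of mice 24 hours after surgery. The group comprised 9 genes: the factors Csf1 (macrophage colony-stimulating factor, M-CSF), Csf2 (granulocyte-macrophage colony-stimulating factor, GM-CSF) and Csf3 (granulocyte colony-stimulating factor, G-CSF), and the receptor genes Csf1r, Csf2ra, Csf2rb, Csf2rb2, Csf3r and Il3ra. Members were the array probes assigned by the manufacturer to a RefSeq transcript of these genes, which gave 15 of the 55681 probes of the array that are not controls. All 15 were retained, that is, well above background on 4 or more of the 8 arrays, as were 34038 probes in all. Whole-heart RNA (ventricles, per the sample labels) came from adult male C57BL\6 mice of 2 groups. In 4 MI mice the anterior interventricular artery was permanently ligated. The 4 sham-operated mice were labelled as sham, without a description of the steps of that surgery in the sources used here. Every mouse had 1 array of the Agilent SurePrint G3 8x60K type, hybridized with RNA labeled in 1 colour. Per the methods, all mice also received Acipimox, a drug that lowers blood fatty acids, and a positron emission tomography exam under isoflurane on the day of sacrifice. Infarcted and distant muscle were not separated.

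Colony-stimulating factors are secreted proteins that control the formation, survival and activation of neutrophils, monocytes and macrophages. CSF1R is a tyrosine kinase of monocytes and macrophages that binds M-CSF. The receptor of GM-CSF pairs a specific alpha chain, encoded by Csf2ra, with the common beta chain encoded by Csf2rb. The alpha chain of the interleukin-3 receptor, encoded by Il3ra, uses the same beta chain, and mice have an additional beta chain, encoded by the neighbouring gene Csf2rb2, that serves interleukin-3 alone. CSF3R is the receptor of G-CSF and is a product of neutrophils and their precursors. After infarction, neutrophils and then monocytes enter the damaged muscle, and these factors act on both.

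Values are log2 processed signals, shifted on each array by the mean of the spike-in RNA added before labeling, and called log2 signals below. Probes differ in how strongly they bind their transcript, so that only the same probe was compared between mice. Probes are named as called where MI and sham-operated mice differed by over 2-fold with an adjusted p under 0.05 (limma, adjusted by Benjamini-Hochberg across the 34038 retained probes). A slide of 2 rows carried the 8 arrays, and either row held 2 mice of each group. The share of spots well above background ran from 58.6% to 66.4%, and correlations between arrays of a group from 0.988 to 0.994. The median log2 fold change of all retained probes was 0.11 under the spike-in shift and -0.020 when arrays were scaled to their 75th percentile, so that small changes of a member depended on the scaling. All 8 markers of cardiomyocytes were retained and 0 of them were called.

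In MI mice 8 of the 15 member probes, belonging to 6 of the 9 genes, were called as higher, and 0 were called as lower. Over all retained probes, 4.47% were called, 3.87% as higher and 0.596% as lower. Lower calls were sensitive to single mice, with 203 over all mice, 68 without MI mouse 2, 107 without sham-operated mouse 3 and 351 without MI mouse 4. The same 8 probes had groups that did not overlap, with every MI mouse above every sham-operated mouse, a pattern found in 7.62% of all retained probes. The opposite pattern was found in 0 of the members and in 2.79% of all retained probes. The median log2 fold change of the 15 probes was 1.07. All 3 factors (Csf1, Csf2 and Csf3), the GM-CSF receptor chains Csf2ra and Csf2rb, and the interleukin-3 beta chain Csf2rb2 had a called probe. None of the probes of Csf1r, Csf3r and Il3ra was called. Csf2 passed the detection filter through the MI mice alone, so that its call is no separate evidence beside that detection.

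Promoters of members with a called probe are shown where they held letters that factors of inflammation or of the myeloid lineage bind. The promoters shown were thus chosen by their matches, and that of Csf2, also called, held none. RefSeq promoter windows (GRCm38.p6) run from 250 bases before to 50 bases after the start of a gene. Windows of Csf1r, Csf2rb and Csf3 were not searched. Those used were of 6 members: Csf1, Csf2, Csf2ra, Csf2rb2, Csf3r and Il3ra. They were searched on both strands for the κB motif of NF-κB, for GAGGAAG, the core that the myeloid factor PU.1 prefers, and for TGANTCA, the site of AP-1. At least 1 match was held by 4 of the 6 windows, and no match of a motif overlapped that of another motif. Of 32851 RefSeq windows, 4.51% held the κB motif, 13.6% held GAGGAAG and 7.81% held TGANTCA. The share of these windows with any of the 3 motifs was not computed. The 250 bases before the start are given from 5′ to 3′ along the gene, with the match in capitals, for Csf1 (chr3:107760470-107760719, minus strand), Csf2rb2 (chr15:78305722-78305971, minus strand) and Csf2ra (chr19:61228419-61228668, minus strand).
Csf1: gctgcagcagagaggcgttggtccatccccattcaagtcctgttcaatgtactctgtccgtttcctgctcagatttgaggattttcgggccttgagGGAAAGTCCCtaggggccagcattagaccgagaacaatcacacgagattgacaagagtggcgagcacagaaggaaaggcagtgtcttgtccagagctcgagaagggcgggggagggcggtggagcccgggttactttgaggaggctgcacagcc
Csf2rb2: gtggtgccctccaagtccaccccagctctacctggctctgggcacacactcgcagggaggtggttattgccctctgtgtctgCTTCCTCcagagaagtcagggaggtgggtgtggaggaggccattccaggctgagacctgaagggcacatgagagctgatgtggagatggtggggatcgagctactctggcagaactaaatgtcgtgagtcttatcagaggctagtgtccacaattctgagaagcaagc
Csf2ra: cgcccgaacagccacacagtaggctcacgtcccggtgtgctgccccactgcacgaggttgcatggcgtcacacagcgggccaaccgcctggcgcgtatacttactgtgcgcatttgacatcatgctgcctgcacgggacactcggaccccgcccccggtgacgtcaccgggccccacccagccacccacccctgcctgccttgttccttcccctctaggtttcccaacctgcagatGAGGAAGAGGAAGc
The Csf1 window held a κB match that starts 154 bases before the gene. The Csf2rb2 window held GAGGAAG on the opposite strand, which reads CTTCCTC along the gene, 168 bases before the start and again 28 bases after it. The Csf2ra window held GAGGAAG at 14 and at 8 bases before the start, and these matches share 1 base. Csf3r, whose probe was not called, also held GAGGAAG, at 86 bases before the start. No match of the 3 motifs was found in the windows of Csf2 and Il3ra. A match describes the letters of the window and not the binding of a factor in these hearts.

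Csf2, the gene of GM-CSF, which is secreted by activated lymphocytes, macrophages, fibroblasts and endothelial cells, was detected in MI mice alone. Log2 signals of its probe (A_51_P171075, NM_009969) were 6.04, 7.32, 7.32 and 5.95 in MI mice 1 to 4. They were 1.01, 1.34, 1.84 and 1.56 in sham-operated mice 1 to 4. The probe was well above background on all 4 arrays of MI mice and on 0 of the 4 arrays of sham-operated mice. It therefore passed the detection filter through MI mice alone, and its sham values lie at the background. Set against the lowest signal that counted as well above background on the arrays of sham-operated mice, the signal of MI mice was 16.1-fold higher. This is no strict lower limit, since Csf3 signals above that lowest signal were not well above background in sham-operated mice. The limma adjusted p of 7.22e-08 belongs to the fit to the measured values and not to this fold. The measured mean was 6.65 ± 0.76 in the MI group, against 1.44 ± 0.35 in the sham group (SD, n = 4 each). The deposited intensities showed the same separation, from 63.4 to 201 in the MI group against 2.42 to 2.77 in the sham group. Csf2 was dim even in MI mice, where 3 of the 4 intensities lay below the median of 198 over all retained probes. The vsn model, whose additive constants compress dim probes, gave a log2 fold change of 0.59 (adjusted p = 0.0273), under the 2-fold threshold.

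Csf3, the gene of G-CSF, which drives the production and release of neutrophils from bone marrow, was also dim and was higher in MI mice. Log2 signals (A_51_P317176, NM_009971) were 4.31, 6.89, 6.01 and 5.42 in the MI group, against 3.78, 2.72, 3.40 and 3.05 in the sham group. The mice with MI ranged widely, with mouse 2 highest and mouse 1 lowest, and the lowest of them was above the highest sham-operated mouse. The mean was 5.66 ± 1.08 in the MI group and 3.24 ± 0.45 in the sham group (SD, n = 4 each), with a fitted log2 fold change of 2.42 (SE 0.41, limma adjusted p = 0.00137). The probe was well above background in 4 MI mice and in 1 sham-operated mouse, so that 3 of the 4 sham values lie at the background and the size of the difference is uncertain. The call was lost in the normalized values of the authors, which leave out spots at the background (log2 fold change 1.30, adjusted p = 0.160), and with dim spots set to missing (1.88, adjusted p = 0.0817), normexp background correction (0.56, adjusted p = 0.0940) and the vsn model (0.30, adjusted p = 0.181).

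Csf1, the gene of M-CSF, which maintains monocytes and macrophages, had 3 probes that gave different values. The probe assigned to transcript NM_007778 (A_51_P195506) had log2 signals of 11.33, 11.03, 11.73 and 11.02 in MI mice and of 10.16, 9.62, 10.20 and 9.70 in sham-operated mice. All MI mice lay above all sham-operated mice. Its mean was 2.57-fold higher in MI mice (log2 fold change 1.36, SE 0.25, 95% interval 0.83 to 1.88, limma adjusted p = 0.00255). The probes assigned to the second transcript NM_001113530 were not called. Probe A_55_P2017914 had log2 signals of 8.65, 8.14, 8.90 and 8.47 in MI mice and of 8.48, 7.85, 8.13 and 7.91 in sham-operated mice. Probe A_55_P2169669 had 8.66, 8.10, 8.89 and 8.44 against 8.37, 7.83, 8.14 and 7.79. In both probes the groups overlapped, and MI mouse 2 lay below sham-operated mouse 1. The array of MI mouse 2 was low as a whole under the spike-in shift (75th percentile minus the spike-in mean, centred over arrays, -0.36). The part of this in the overlap was not tested. Their log2 fold changes were 0.45 (95% interval -0.07 to 0.97, adjusted p = 0.380) and 0.49 (-0.03 to 1.01, adjusted p = 0.331).

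The 3 probes of Csf1 were set against each other within each array, which cancels any error of the scaling. The fold change of the NM_007778 probe exceeded those of the other probes by 0.91 and 0.87 on the log2 scale. All 4 MI mice differed from all 4 sham-operated mice in both differences (exact permutation p = 0.0286, the smallest that 4 against 4 mice allow, and 0.0686 after adjustment over the 12 pairs of probes compared). The probes of NM_001113530 differed from each other by -0.038 (exact permutation p = 0.371). Probe sequences were not used here, so that the exons behind these probes are not described.

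**Figure D1:**
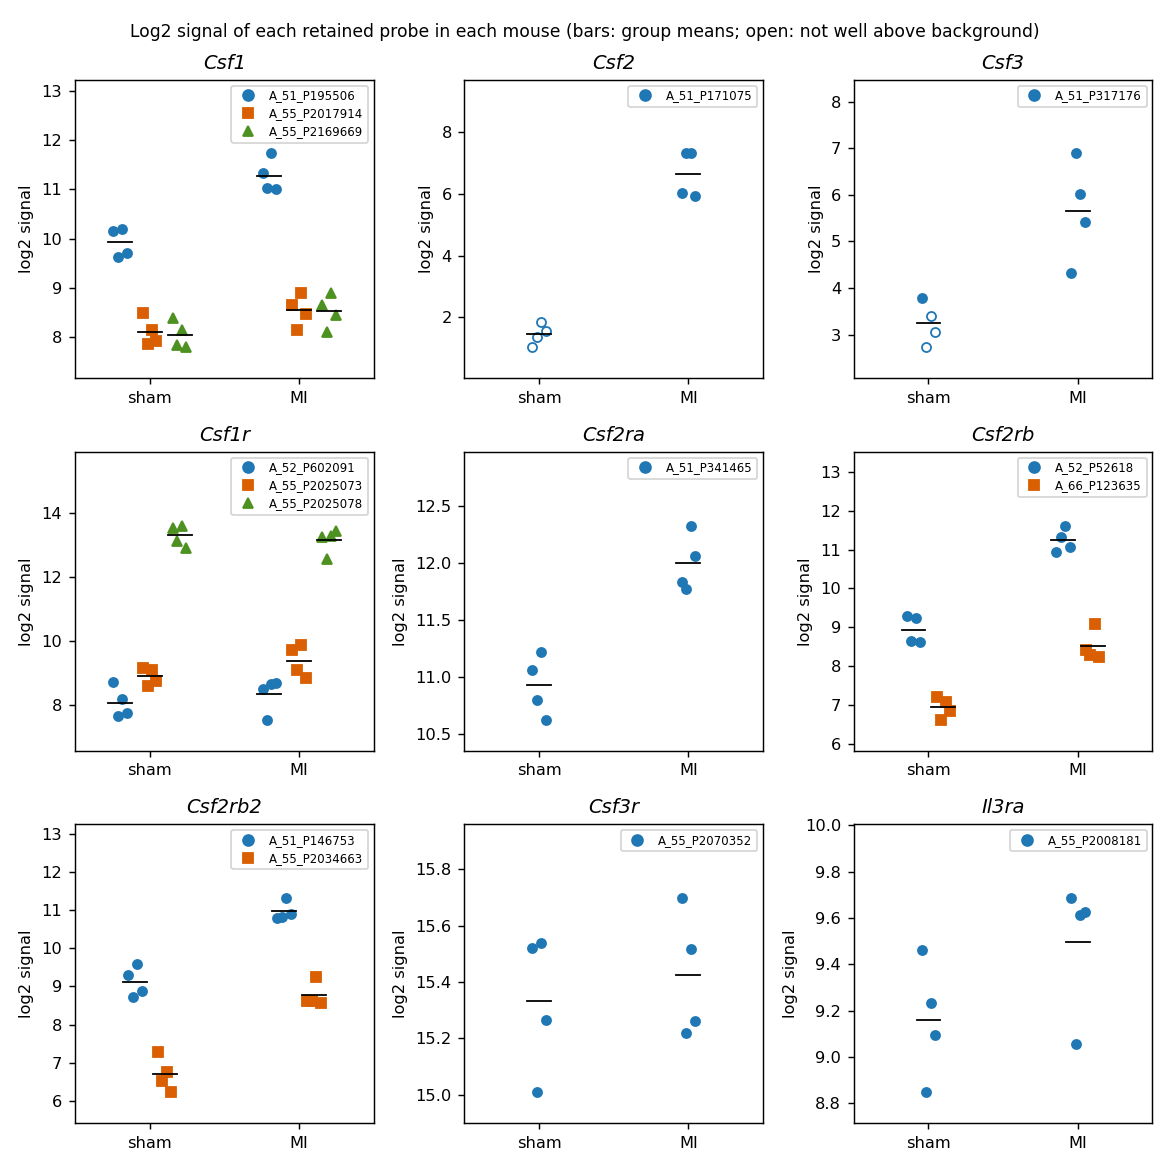
Log2 signal (vertical axes, spike-in shift) of the 15 member probes in both groups of 4 mice. Each point is a mouse, each symbol a probe, bars are group means, and open symbols mark arrays on which the probe was not well above background. Groups are apart in the probes of Csf2, Csf3, Csf2ra, Csf2rb and Csf2rb2 and in 1 of 3 Csf1 probes, and they overlap in Csf1r, Csf3r and Il3ra.

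Among the receptors, both chains of the GM-CSF receptor were higher in MI mice. Csf2ra, the alpha chain, had log2 signals (A_51_P341465, NM_009970) of 11.83, 11.77, 12.33 and 12.07 in MI mice and of 11.06, 10.80, 11.22 and 10.63 in sham-operated mice. The groups did not overlap, and the gap between the lowest MI mouse and the highest sham-operated mouse was narrow beside that of the beta chains. The difference was 2.10-fold (log2 fold change 1.07, SE 0.23, 95% interval 0.58 to 1.57, adjusted p = 0.0105). This value stood at the 2-fold threshold, since it was 0.94 after scaling to the 75th percentile (adjusted p = 0.00428), 0.96 without MI mouse 3 (adjusted p = 0.0408) and 0.97 without sham-operated mouse 4 (adjusted p = 0.0547).

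Csf2rb, the common beta chain, which passes the signal of GM-CSF, interleukin-3 and interleukin-5 to JAK2 and STAT5, was higher in MI mice with both of its probes (NM_007780). Probe A_52_P52618 had log2 signals of 10.94, 11.32, 11.62 and 11.08 in MI mice and of 9.27, 8.63, 9.23 and 8.62 in sham-operated mice. Probe A_66_P123635 had 8.40, 8.29, 9.08 and 8.24 against 7.19, 6.62, 7.08 and 6.83. MI mouse 3 was the highest with both probes, and all MI mice were more than 1 log2 unit above the highest sham-operated mouse. The fold changes were 4.92 (log2 2.30, SE 0.25, adjusted p = 1.98e-05) and 2.98 (log2 1.57, SE 0.25, adjusted p = 0.000761). The first exceeded the second by 0.72 on the log2 scale within arrays (exact permutation p = 0.0286, adjusted p = 0.0686). With the vsn model the second probe lay under 2-fold (log2 fold change 0.80, adjusted p = 0.0122).

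Csf2rb2, the beta chain of interleukin-3 alone, was higher with both of its probes as well (NM_007781). Probe A_51_P146753 had log2 signals of 10.80, 10.83, 11.32 and 10.90 in MI mice and of 9.30, 8.71, 9.59 and 8.87 in sham-operated mice. Probe A_55_P2034663 had 8.63, 8.62, 9.25 and 8.57 against 7.29, 6.52, 6.76 and 6.24. Here too MI mouse 3 was the highest with both probes and the groups were apart. The fold changes were 3.59 (log2 1.84, SE 0.25, adjusted p = 0.000167) and 4.18 (log2 2.06, SE 0.27, adjusted p = 0.000104). The probes differed by -0.22 in log2 fold change (exact permutation p = 0.371).

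Csf2rb and Csf2rb2 are close paralogs, and binding of a probe to the transcript of the other gene was not tested. In the 4 pairs made of a probe of each gene, the difference of their log2 fold changes, Csf2rb minus Csf2rb2, was 0.45, 0.23, -0.27 and -0.49. The sign therefore depended on the Csf2rb probe, and the data do not order these genes. None of the 12 pairs of probes compared, over Csf1, Csf1r, Csf2rb and Csf2rb2, reached an adjusted p under 0.05 in the exact permutation test. An unadjusted p of 0.0286, the smallest that 4 against 4 mice allow, was reached by 5 pairs. With 5 pairs at that value the adjustment gave each of them 0.0686, however far apart its groups were. The count of passing pairs thus rests on how many reach the smallest p together, and gives no verdict on a single pair. With normexp background correction 8 pairs passed.

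Il3ra, the alpha chain of the interleukin-3 receptor, was not called. Log2 signals (A_55_P2008181, NM_008369) were 9.69, 9.06, 9.61 and 9.63 in the MI group, against 9.46, 8.85, 9.23 and 9.09 in the sham group. MI mouse 2 lay below 3 of the sham-operated mice, and the other MI mice lay above all of them. The whole array of MI mouse 2 was low under the spike-in shift, and the part of this in its Il3ra value was not tested. The log2 fold change was 0.34 (95% interval -0.17 to 0.84, adjusted p = 0.538), an interval that ends below the 2-fold threshold.

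Csf1r, the receptor of M-CSF, was not called with any of 3 probes (NM_001037859), whose groups overlapped. Probe A_55_P2025078 had log2 signals of 13.26, 12.57, 13.29 and 13.44 in MI mice and of 13.53, 13.13, 13.60 and 12.92 in sham-operated mice. Its log2 fold change was -0.15 (95% interval -0.70 to 0.39, adjusted p = 0.837) and turned to 0.034 without MI mouse 2. Probe A_55_P2025073 had 9.71, 9.08, 9.86 and 8.85 against 9.16, 8.59, 9.10 and 8.76, with a log2 fold change of 0.48 (95% interval -0.09 to 1.04, adjusted p = 0.397). Probe A_52_P602091 had 8.51, 7.54, 8.67 and 8.69 against 8.72, 7.65, 8.19 and 7.75, with a log2 fold change of 0.28 (95% interval -0.37 to 0.92, adjusted p = 0.729) that ran from 0.13 without sham-operated mouse 2 to 0.55 without MI mouse 2. The last and the first of these probes changed sign between the rows of the slide, with -0.16 and 0.71 for A_52_P602091 and -0.41 and 0.11 for A_55_P2025078 in rows 1 and 2. Differences between the fold changes of these probes reached 0.63 (exact permutation p = 0.143).

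Csf3r, the receptor of G-CSF, had a single probe (A_55_P2070352, NM_007782) with bright signals in both groups. Log2 signals were 15.70, 15.22, 15.52 and 15.26 in the MI group, against 15.52, 15.01, 15.54 and 15.27 in the sham group. The groups overlapped over nearly their whole range. The log2 fold change was 0.09 (95% interval -0.40 to 0.58, adjusted p = 0.904), and its sign turned under the 75th percentile scaling (-0.040) and between the rows of the slide, with 0.19 in row 1 and -0.012 in row 2. The intensities lay between 32710 and 56010, and the probe was not saturated on any array. Which cells or transcripts gave this signal was not tested.

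**Figure D2:**
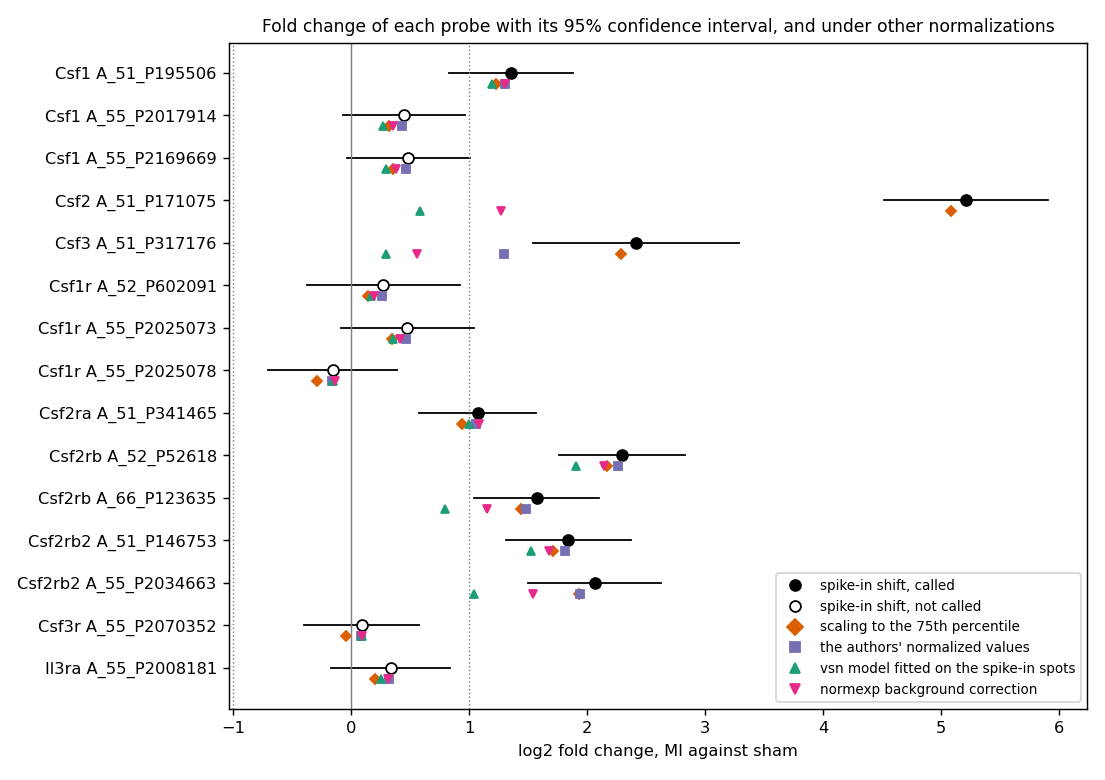
Log2 fold change (horizontal axis, MI against sham-operated mice) of each member probe with its 95% confidence interval (limma, 4 mice per group), filled where called, and the same value under 4 other normalizations. Dotted lines mark 2-fold. The Csf2 value of 5.21 rests on sham signals at the background and is no measure of size. Csf2rb and Csf2rb2 exceeded 2-fold under every scaling shown except probe A_66_P123635 with the vsn model, while the dim Csf2 and Csf3 moved most.

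The mice agreed in the direction of the called probes in both rows of the slide. Within rows 1 and 2, the log2 fold change was 1.29 and 1.43 for the called Csf1 probe, 2.35 and 2.49 for Csf3, and 0.87 and 1.27 for Csf2ra. It was 2.17 and 2.42 for Csf2rb (A_52_P52618), and 1.81 and 1.88 for Csf2rb2 (A_51_P146753). For Il3ra it was 0.22 and 0.46.

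**Figure D3:**
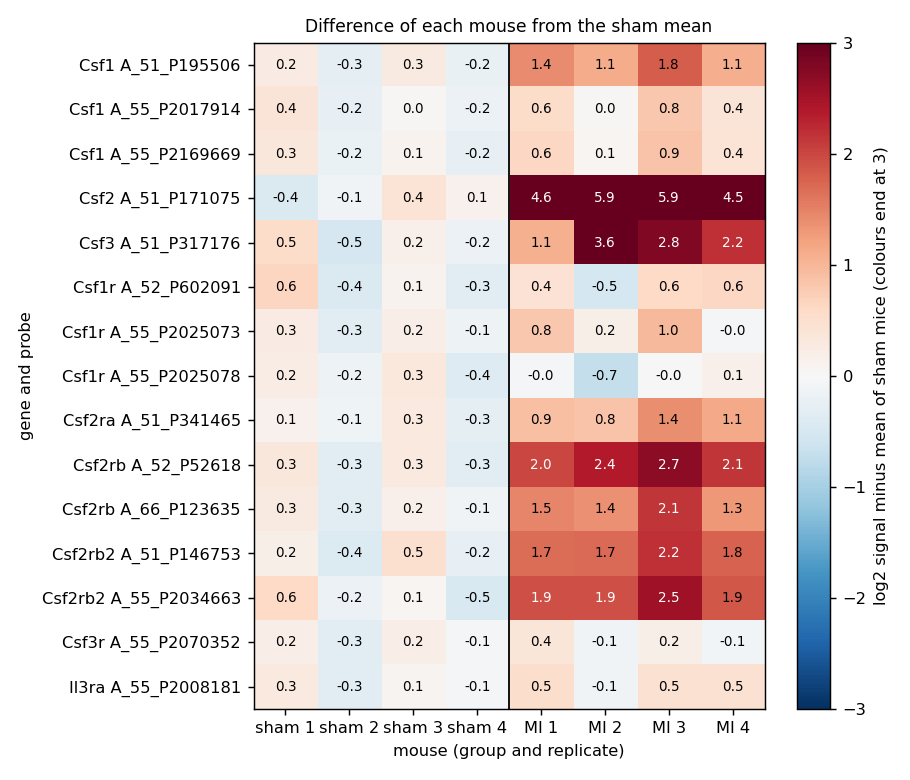
Difference of each mouse from the mean of the 4 sham-operated mice (log2 signal, colour and printed value) for the 15 member probes (rows) in 8 mice (columns). The 8 called probes are higher in all 4 MI mice, MI mouse 3 is the highest with all 4 probes of Csf2rb and Csf2rb2, and MI mouse 1 is the lowest of the MI mice for Csf3.

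Genes outside the members whose log2 signals followed a called member most closely were found from the smallest root-mean-square difference over the 8 arrays, after centring each gene on its mean. For the called Csf1 probe these were Nek6 (0.0661) and Hspb7 (0.0986), and for Csf2ra they were Id2 (0.0840) and Btk (0.0952), a kinase of B cells and myeloid cells. Csf2rb (A_52_P52618) was followed by Tmem88b (0.115) and Sphk1 (0.134), and Csf2rb2 (A_51_P146753) by Runx1 (0.124), a transcription factor of blood cell formation, and Nrip3 (0.141). For Csf3 the nearest were Ccl3 (0.425), a chemokine of myeloid cells, and Ceacam16 (0.453), and for Csf2 they were Hspa1a (0.330) and Cstdc4 (0.334). All 8 arrays entered these measures, so that the difference between the groups is a large part of the likeness.

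Genes that act with the factors were described with the brightest retained probe of each gene. By that probe, 4.66% of 15156 genes were called as higher and 0.666% as lower. Of the genes known to induce the factors, 4 of the 7 retained were called as higher and 0 as lower. They included Il6 (log2 fold change 3.43, SE 0.44), Il1b (3.32, SE 0.45) and Tnf (2.04, SE 0.34), cytokines of early inflammation, while Rela, a subunit of NF-κB, was not called (0.37, SE 0.25). The median log2 fold change of this list was 1.97, against 0.11 over all retained probes. Il1a was not retained.

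The receptors of the members signal through JAK kinases and STAT5 or STAT3, among others. Of 18 genes of receptor signalling, 2 were called as higher and 0 as lower, with a median of 0.43. Among them was Tyrobp (1.21, SE 0.24, from 3 MI mice, since an outlier spot was left out in the fourth), an adaptor of myeloid receptors. Ptpn11, a phosphatase that relays growth factor signals, had a log2 fold change of -0.01. Of 8 inhibitors of receptor signalling 3 were called as higher. They were Socs3 (2.16, SE 0.25), the feedback inhibitor of the G-CSF and interleukin-6 receptors, Socs1 (1.60, SE 0.23) and the phosphatase gene Ptpn6 (1.38, SE 0.22). The median of the list was 0.85, and Cish, a target and inhibitor of STAT5, was not called (0.67, SE 0.23, adjusted p = 0.110).

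Of 8 targets of STAT5 and STAT3, 3 were called as higher and 0 as lower, with a median of 0.67. They were the cytokine gene Osm (1.54, SE 0.34), Myc (1.28, SE 0.30) and the kinase gene Pim1 (1.20, SE 0.27), each of which has other inducers as well. The groups overlapped for Osm, where MI mouse 1 (5.84) lay below sham-operated mouse 3 (6.04). All 3 lost the call with no filter on detection (adjusted p = 0.0910 for Osm, 0.100 for Myc and 0.0692 for Pim1) and with the vsn model (log2 fold changes 0.41, 0.88 and 0.75). Osm was not called without MI mouse 2 (adjusted p = 0.0575), and Myc was not called without that mouse (adjusted p = 0.0576) or without sham-operated mouse 2 (adjusted p = 0.0580). The survival gene Mcl1 had a log2 fold change of -0.01. Among 11 related growth factors and receptors only Kit, the receptor of stem cell factor, was called (2.10, SE 0.26), and Flt3l, the ligand of FLT3, had -0.56 (adjusted p = 0.230). Of 8 retained transcription factors of myeloid cells 3 were called as higher. These were Spi1, the gene of PU.1 (2.28, SE 0.31, well above background in 1 sham-operated mouse), Cebpe, which acts in late granulocyte precursors (2.19, SE 0.23), and Runx1 (2.08, SE 0.25).

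Most neutrophil markers were higher in MI mice. Of 11 retained neutrophil markers 7 were called as higher, with a median of 2.79. Among them were Retnlg (4.27, SE 0.31), the chemokine receptor gene Cxcr2 (3.70, SE 0.29) and the granule gene Ngp. Ngp was not well above background in any sham-operated mouse and passed the detection filter through MI mice alone. Set against the lowest signal well above background on the sham arrays, it was 11.6-fold higher in MI mice. This is no strict lower limit. The limma adjusted p of 3.44e-05 belongs to the fit to the measured values (mean of deposited intensities 107 against 2.58). Ngp was low in MI mouse 4, with an intensity of 16.4 against 81.2 to 198 in the other MI mice. Without that mouse the fold set against that lowest signal was 20.05, and with the vsn model Ngp was not called (log2 fold change 0.53, adjusted p = 0.106). The summed signal of the neutrophil markers was between 215273 and 322835 in the MI group, against 45356 to 76300 in the sham group. This sum rests mostly on the brightest markers. Mean log2 signals in the MI and sham groups were 17.14 and 14.34 for S100a9, 15.87 and 12.84 for S100a8, and 15.64 and 14.99 for Lcn2. Lcn2, a granule gene also made by muscle and epithelial cells, was not called (0.65, SE 0.32, and 0.28 without sham-operated mouse 2). Nor were the markers Camp (0.70), Mpo (0.11) and Elane (-0.07). The member Csf3r, a receptor gene of neutrophils, was flat as well by its only probe (0.09), with bright signals in both groups. That probe had a mean intensity of 39919 in sham-operated mice, against 38.1 for Cxcr2, 7040 for S100a8 and 34040 for Lcn2. Probes differ in how strongly they bind, and whether the Csf3r signal came from neutrophils was not tested. Of 12 retained markers of monocytes and macrophages, 2 were called as higher, Cd14 (2.27, SE 0.31) and Ccr2 (1.23, SE 0.26). Their list, which includes Csf1r, had a median of 0.17. Its summed signal overlapped, with 23067 to 36780 in the MI group and 21270 to 29459 in the sham group. Cd68 and Ly6c2 of this list, and Ly6g of the neutrophil list, were not paired with a probe and are missing from these counts. The paper reports CD68 as up-regulated in MI mice by microarray. The part of the neutrophil markers in the changes of Csf2ra, Csf2rb and Csf2rb2 was not tested. In RNA of whole hearts, more cells of a type and more RNA per cell cannot be told apart.

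Other cell types gave few calls. The dendritic cell list had 1 call among 7 retained genes, Itgax (1.67, SE 0.28), which neutrophils and macrophages also express. T cell markers had 1 of 4 (Cd3d, 1.12, SE 0.23) and B cell markers 1 of 4 (Ms4a1, 1.25, SE 0.30, well above background in 1 sham-operated mouse). Cd3d lay below 2-fold without MI mouse 3 (0.995), and Ms4a1 was not called without MI mouse 2 (adjusted p = 0.0605) or sham-operated mouse 3 (adjusted p = 0.0665). Smooth muscle and pericyte markers had 1 of 6 (Acta2, 1.47, SE 0.28), an actin of myofibroblasts as well. Eosinophil, basophil and mast cell markers, cells that also carry the beta chains, had 0 of 6, and endothelial markers and fibroblast markers had 0 of 7 each. With normexp background correction, the log2 fold changes of Tnf (0.82), Osm (0.76), Cebpe (0.90), Spi1 (0.53), Ccr2 (0.86), Cd3d (0.31) and Ms4a1 (0.12) were under the 2-fold threshold. No gene of these lists was called as lower, and the fibroblast markers had the lowest median, -0.44.

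**Figure D4:**
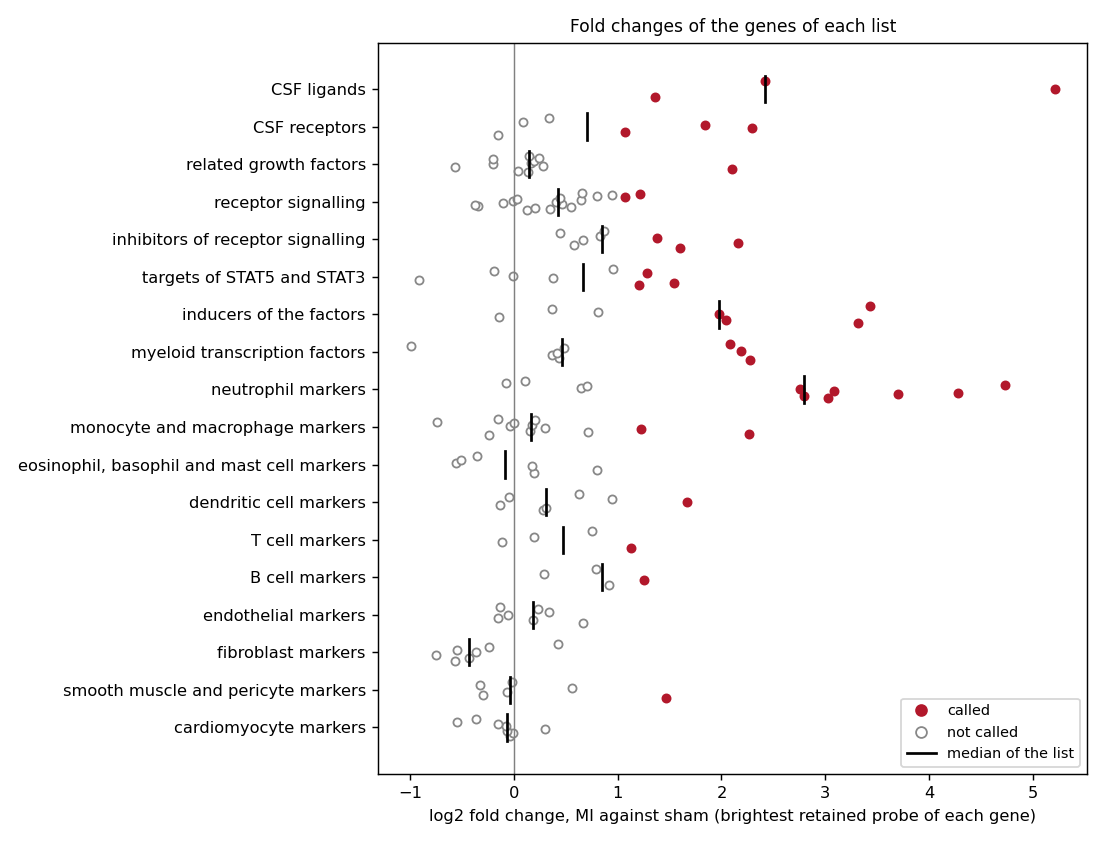
Log2 fold change (horizontal axis, MI against sham-operated mice) of the genes of each list, by the brightest retained probe of a gene. Filled points are called genes and bars are list medians. Neutrophil markers have the highest median (2.79), and the values of Csf2 and Ngp, and of Csf3 in 3 of 4 sham-operated mice, rest on sham signals at the background.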

How the data were processed

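The authors deposited scanner intensities from Feature Extraction 11.0.1.1 (processed signals), which per the file headers were corrected for background and spatial trend but not normalized between arrays. They also deposited log2 values, made by the authors with limma and vsn from spike-in probes, with spots at the background missing. These were used as an alternative only. Here, log2 intensities were shifted on each array by the mean of 234 spots of 7 spike-in probes, spots with outlier flags were left out and spots of a probe were averaged. Groups came from the sample labels. MI and sham-operated mice (n = 4 each) were compared with limma 3.58.1 (R 4.3.3), without covariates. Single values were compared with two-sided exact permutation tests in Python 3.11.15. No additive constant was used, since the constants of the vsn refit (166 to 257) were close to the median intensity (198) and compress dim probes such as Csf2 and Csf3.

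Symbols came from RefSeq accessions in the GRCm38.p6 annotation (15 of 15 member probes, 26582 probes in all). Named genes were all members, up to 3 called genes with the largest fold change per list, the brightest gene not called, and the nearest 2 genes by pattern. In addition, S100a8, S100a9 and the other neutrophil markers not called were named. The other called gene of receptor signalling is not reported here. The members and lists were chosen with earlier results of these data known. Simulated data were used to check the tests. Across probes, deviations of same-numbered mice from their group means had correlations of 0.196, 0.0416, -0.0731 and 0.00707. These correlations cannot show an offset shared by all probes of an array. The 75th percentile minus the spike-in mean, centred over arrays, was 0.10 and 0.24 in sham-operated and MI mouse 1. It was -0.37 and -0.36 in mice 2, 0.15 and 0.27 in mice 3, and -0.14 and 0.11 in mice 4. Whether the numbers mark paired mice was not tested. The number of arrays limits the precision. Replicates are separate mice per the methods. Alternatives were 4 other normalizations (75th percentile, quantile, vsn, the values of the authors), normexp background correction, 3 treatments of dim spots, significance analysis of microarrays, blocks, and each mouse left out.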

Additional observations from a re-analysis of the deposited data

Results flagged for a closer look

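In the 108 groups of 4 mice that were checked, 7 held a mouse that stood apart from the other 3 of its group, and chance gives about 1 in 20 groups. Among the members, MI mouse 2 was low for Csf1r (A_52_P602091), at a log2 signal of 7.54 against 8.51 to 8.69 in the other MI mice. MI mouse 2 was also low for Il3ra, at 9.06 against 9.61 to 9.69. Under the spike-in shift the array of MI mouse 2 was low as a whole. Its 75th percentile minus the spike-in mean, centred over arrays, was -0.36, against 0.11 to 0.27 in the other MI mice. The part of this offset in the low values of MI mouse 2 was not tested. MI mouse 3 was high for Csf2rb2 (A_55_P2034663), at 9.25 against 8.57 to 8.63. Among the other genes, Cd14 was low in MI mouse 1 (11.75 against 12.73 to 12.82). In sham-operated mouse 3, Il1b was high (8.66 against 7.14 to 7.37), as was Mcl1 (14.89 against 14.40 to 14.47). Spi1 was high in sham-operated mouse 1 (4.55 against 3.04 to 3.29).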

How the results depend on the processing

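Called probes numbered 1520 under the spike-in shift, 333 with the vsn model, 1007 with the values of the authors, 609 with normexp background correction and 993 with no filter on detection. Calls higher and lower were 1317 and 203, against 1046 and 398 after scaling to the 75th percentile and 976 and 438 after quantile normalization. An adjusted p under 0.05, at any fold change, was reached by 1862, 5955 and 6177 probes in these settings, in that order. The adjusted p of a probe not called thus depended on the scaling. After scaling to the 75th percentile it was 0.110 for Csf1 A_55_P2017914 and 0.0757 for Csf1 A_55_P2169669 (limma). Their log2 fold changes were then 0.32 and 0.36, under the 2-fold threshold. With the vsn model 4 member probes were called in place of 8, and 13 list genes in place of 29. Pairs of probes with an adjusted p under 0.05 numbered 0, and 9 with the vsn model or 8 with normexp. This count rests on how many pairs reach the smallest exact permutation p together. Over 281 values of member probes under the alternatives, 266 kept direction and call, 11 lost the call and 4 changed sign. The lost calls were Csf2 with vsn (log2 fold change 0.59), Csf3 with vsn (0.30), normexp (0.56), the values of the authors (1.30) and missing dim spots (1.88), Csf2rb A_66_P123635 with vsn (0.80), and Csf2ra with vsn (0.998), quantile normalization (0.99), the 75th percentile (0.94) and 2 of the mice left out. The changes of sign were in Csf3r after scaling to the 75th percentile (-0.040) and without MI mouse 1 or sham-operated mouse 2, and in Csf1r A_55_P2025078 without MI mouse 2. Outside the members, Mcl1 changed sign with normexp (0.0145). The cause was not tested. Csf2 had no value where every sham-operated mouse was missing.

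With 1 mouse left out, called probes ranged from 1238 to 1850 (from 68 to 351 of them lower), member probes called from 7 to 8, and list genes called from 28 to 32. The log2 fold change ranged from -0.28 to 0.034 for Csf1r A_55_P2025078, from -0.017 to 0.16 for Csf3r, from -0.058 to 0.11 for Mcl1, from -0.15 to 0.11 for Ptpn11, from -0.12 to 0.025 for Siglech and from -0.14 to 0.050 for Tagln. Pairs of probes were not tested with a mouse left out.

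With the replicate number as a block, 1551 probes were called in place of 1520, and an adjusted p under 0.05 was reached by 4310 probes in place of 1862. The labels link same-numbered mice by the number alone, and 8 member probes were called with the block. Dim probes such as Csf2 and Csf3 are limited by their signal over background.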
